A study of Mus musculus with 4 samples.

Results

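Single-center enhancers already known from FANTOM5 made up 497 of the 2282 enhancers that the study listed for mouse liver. They were chosen by 2 columns of that list: exactly 1 center position, and an overlap of that center with an enhancer of the FANTOM5 atlas. No level or change of transcription entered the choice, although the list itself was called from transcription in all libraries pooled. The remaining enhancers were 274 with several centers and 1511 with a single center that FANTOM5 does not hold. Transcription was measured by PRO-seq, which maps the 3' end of RNA still held by an engaged polymerase, in nuclei of whole livers of C57BL/6 mice at postnatal day 14. The 2 WT libraries came from Alb-Cre+ Hdac3+/+ livers and the 2 KO libraries from Alb-Cre+ Hdac3 fl/- or fl/fl livers, so that both groups carried the Cre transgene. Cre was driven by the albumin promoter, so the deletion of the fl allele was aimed at hepatocytes and not at the other cells of the liver. In fl/- mice the other allele was an inherited null allele, which is not limited to hepatocytes. Nuclei of several mice were pooled, 20000000 for each library, so the p-values rest on the spread between such pools. The tests shared that spread across genes.

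Enhancers are stretches of DNA that raise the transcription of genes at a distance, and active ones are transcribed in both directions into short-lived enhancer RNA. The center of such a pair lies between the divergent start sites, where transcription factors bind. FANTOM5 built its atlas from capped RNA ends over many mouse and human cell types and left out regions near known gene starts and exons. HDAC3 is a histone deacetylase that works in the NCoR and SMRT corepressor complexes, and in the liver it is brought to DNA by nuclear receptors and keeps lipid and glucose genes in check.

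The list gives no reads of the enhancers in single libraries, so the readout used here is the transcription of the closest gene that the list names. The authors ignored inactive genes in that choice, so the start of another annotated gene can lie nearer. The promoters of the called closest genes with the largest gene body changes, among those averaging at least 50 normalized reads, are shown because those changes carry the comparison of genotypes. Each stretch runs from 100 bases before the RefSeq gene start to 20 bases from it, in GRCm38 (mm10) and in the direction of the gene. Capitals mark exact matches to the motifs searched. The first set belongs to genes whose gene bodies rose in KO.
Kcnj8, chr6:142571595-142571714, minus strand: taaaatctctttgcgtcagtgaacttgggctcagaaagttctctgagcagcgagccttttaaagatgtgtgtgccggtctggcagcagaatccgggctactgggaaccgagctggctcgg
Serpinh1, chr7:99353220-99353339, minus strand: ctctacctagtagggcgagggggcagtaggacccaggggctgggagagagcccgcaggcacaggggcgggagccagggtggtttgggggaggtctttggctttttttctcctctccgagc
Hgf, chr5:16553395-16553514, plus strand: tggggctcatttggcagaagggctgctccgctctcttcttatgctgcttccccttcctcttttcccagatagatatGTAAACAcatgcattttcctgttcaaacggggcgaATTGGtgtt
Bgn, chrX:73483501-73483620, plus strand: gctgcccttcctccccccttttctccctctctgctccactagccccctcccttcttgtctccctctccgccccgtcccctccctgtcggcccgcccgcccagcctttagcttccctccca
Hgf holds TGTTTAC, the core of forkhead factor sites, read on the other strand as GTAAACA, and CCAAT, bound by NF-Y, read as ATTGG. The other three hold no match in these bases. The deposited start differs from the RefSeq start by 258 bp for Kcnj8, -55 bp for Hgf and -34 bp for Bgn. The second set belongs to genes whose gene bodies fell.
Dio3os, chr12:110278049-110278168, minus strand: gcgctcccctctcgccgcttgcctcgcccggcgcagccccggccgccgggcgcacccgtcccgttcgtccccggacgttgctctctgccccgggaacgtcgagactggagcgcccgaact
Iyd, chr10:3540174-3540293, plus strand: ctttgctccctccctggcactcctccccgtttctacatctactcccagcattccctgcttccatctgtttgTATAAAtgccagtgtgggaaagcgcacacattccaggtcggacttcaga
Fam55b (Nxpe2), chr9:48340879-48340998, minus strand: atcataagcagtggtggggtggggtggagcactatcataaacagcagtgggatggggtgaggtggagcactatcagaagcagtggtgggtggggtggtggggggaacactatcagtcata
Gcnt4, chr13:96924613-96924732, plus strand: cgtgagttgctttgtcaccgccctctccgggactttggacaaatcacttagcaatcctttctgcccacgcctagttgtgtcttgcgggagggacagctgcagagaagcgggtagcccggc
Iyd holds TATAAA, the TATA box. The deposited start differs from the RefSeq start by -24 bp for Gcnt4 and 5 bp for Iyd. No promoter of Sox17 or Nrn1 was in the table used here.

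Over all closest genes, 333 of 425 had a promoter of 300 bases in the RefSeq table. The RefSeq start fitted the deposited distance within 2 bp for 247 of the 425, so a promoter need not sit at the start used for the reads. Exact matches on either strand to CCGGAAG, the core of ETS factor sites, stood in 46 of the 333 (13.8%), against 8.86% of all 32851 windows of the same length. CACGTG, the E-box, stood in 11.1% against 7.15%, and TGACGTCA, the CREB site, in 4.2% against 1.79%. TATAAA stood in 7.81% against 13.6%, AGGTCA, the core of nuclear receptor sites, in 11.7% against 16.3%, TGANTCA, the AP-1 site, in 4.5% against 7.81%, and TGTTTAC in 1.8% against 3.65%. CCAAT stood in 38.7% against 37.4%. Matches to TAGGTCA, bound by REV-ERB and ROR, are also matches to AGGTCA and stood in 2.4% against 2.61%. TTGCGCAA, bound by C/EBP, stood in 2 promoters, as did GTTAATNAT, the first part of the HNF1 palindrome. Unlike the closest genes, which were all active, the 32851 windows were not limited to active genes. These shares are descriptions and were not tested.

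The centers of 17 of the 497 enhancers fell in such a start window of a RefSeq transcript, which allows their sequence to be read. For 4 of these the closest gene is described here, and the stretch of 60 bases on each side of the center is shown on the plus strand of GRCm38, with motif matches in capitals.
Enhancer 358, near Map2k6, chr11:110551728-110551848, plus strand: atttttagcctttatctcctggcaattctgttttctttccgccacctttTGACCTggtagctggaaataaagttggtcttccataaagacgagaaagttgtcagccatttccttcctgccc
Enhancer 379, near B3gnt2, chr11:22584537-22584657, plus strand: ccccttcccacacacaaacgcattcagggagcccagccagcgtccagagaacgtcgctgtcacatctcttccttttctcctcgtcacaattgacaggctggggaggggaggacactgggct
Enhancer 1821, near Samd9l, chr6:3183030-3183150, plus strand: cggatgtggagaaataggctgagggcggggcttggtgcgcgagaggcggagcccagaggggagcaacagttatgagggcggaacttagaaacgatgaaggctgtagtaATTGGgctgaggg
Enhancer 1951, near Tshz3, chr7:37140352-37140472, plus strand: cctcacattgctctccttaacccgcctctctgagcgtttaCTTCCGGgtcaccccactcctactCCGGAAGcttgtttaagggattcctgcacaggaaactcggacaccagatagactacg
Enhancer 358 holds AGGTCA on the minus strand, enhancer 1821 CCAAT on the minus strand, and enhancer 1951 CCGGAAG on both strands. Enhancer 379 holds no match. Among the 17 windows of 300 bases, AGGTCA stood in 4, CCAAT in 4, CCGGAAG in 2, TGANTCA in 2, CACGTG in 2, TGTTTAC in 1 and TATAAA in 1.

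The known single-center enhancers were short. Their median length was 1971 bp, with quartiles of 1516 and 2708 bp. Other single-center enhancers had a median of 2116 bp and those with several centers 7779 bp. Of the known ones, 11 (2.21%) were longer than 10 kb, against 40.5% of those with several centers, and 25 were shorter than 1 kb. The longest, enhancer 541 at chr12:7862220-7921398, spans 59178 bp, and its center lies at 97.9% of that length. Its closest gene is Apob, which encodes the structural protein of very low density lipoprotein, at 56279 bp. The shortest, enhancer 1551 at chr4:129789487-129789766, spans 279 bp and lies 30713 bp from Ptp4a2, a tyrosine phosphatase gene. The center stood on median at 49.4% of the listed length, with quartiles of 39.0 and 59.5%, so most centers lay near the middle.

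The distance to the start of the closest gene had a median of 44481 bp, with quartiles of 20040 and 99570 bp. It was counted from the nearer edge of the enhancer. The nearest GENCODE gene start of any kind, active or not, lay at a median of 13947 bp from the center. The gene start was within 50 kb for 272 enhancers (54.7%), against 47.8% of other single-center enhancers. It was beyond 100 kb for 124 (24.9%), against 32.9%. The nearest was C77080, at 2208 bp from enhancer 1549 (chr4:129250651-129252888), whose center lies inside the C77080 gene as GENCODE draws it. The farthest was Atic, an enzyme gene of purine synthesis, at 1796689 bp from enhancer 165 (chr1:69759167-69760467). Of 496 enhancers that could be placed, 358 (72.2%) lay upstream of their closest gene, at a median of 32709 bp. A further 120 (24.2%) lay downstream, at a median of 83321.5 bp from the start and never less than 25457 bp from it. The last 18 lay inside the gene's GENCODE limits. Before calling, the authors left out transcripts near RefSeq genes, over a longer stretch past the gene end than before the start. The split by side and the minimum distances depend on that rule, and nothing is read from them.

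**Figure D1:**
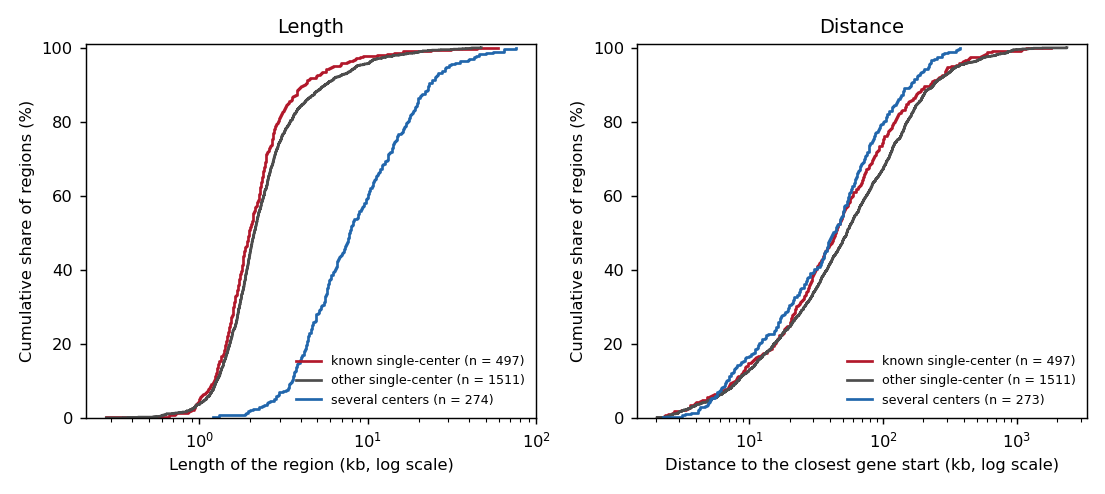
Cumulative share of enhancers (%) against the length of the region (left, kb, log scale) and against the distance to the closest gene start (right, kb, log scale), for known single-center enhancers, other single-center enhancers and enhancers with several centers. The curve of the known enhancers stays close to that of other single-center enhancers in length (medians of 1971 and 2116 bp), while enhancers with several centers lie far to the right (7779 bp).

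In GENCODE vM21, 82 of the 497 centers (16.5%) lay inside an annotated gene, against 25.8% of other single centers. The host was protein-coding for 26 (5.23%, against 9.27%) and a lincRNA for 46 (9.26%, against 12.6%). An exon held 10 centers (2.01%), against 7.21%. A gene start lay within 1 kb of 33 centers (6.64%, against 16.4%), and a protein-coding start was the nearest one within 1 kb of 4 (0.805%, against 5.69%). FANTOM5 left out regions near known gene starts and exons, so the shares near starts and in exons follow from how the members were chosen, and nothing is read from them. Both kinds were called by the authors outside annotated RefSeq genes, and the shares were not tested.

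Another listed enhancer lay within 10 kb of 149 known enhancers (30%) and within 50 kb of 252 (50.7%). For other single-center enhancers these shares were 28.7 and 51.2%. Among themselves, 97 of the 497 formed 42 runs in which neighbours were at most 50 kb apart, and 400 stood alone. Each of 4 runs held 4 enhancers. One of them, chr12:85392956-85469693, lies beside Fos and Tmed10, and another, chr13:111933317-112002571, beside Map3k1. The other two are chr2:165899642-165984092, beside the coactivator gene Ncoa3 and Zmynd8, and chr15:81510950-81537365, beside Rbx1 and the acetyltransferase gene Ep300. By chromosome, the known enhancers made up 32.43% of the 37 listed on chromosome X and 14.52% of the 124 on chromosome 8, the highest and lowest shares apart from the mitochondrial genome.

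The list also names genes that 4DGenome, a collection of chromatin contacts from published experiments, ties to each enhancer. Of the 497, 472 (95%) were tied to at least 1 gene, with a median of 13 genes. The closest gene was among them for 260 (52.3%), against 46.2% of other single-center enhancers and 64.2% of those with several centers. Within 50 kb it was 158 of 272 (58.1%, against 55.3%), and beyond 50 kb 102 of 225 (45.3%, against 37.8%). Liver was not named among the cells of these contacts in the list, whereas the paper also used 4DGenome contacts that it assigned to liver. Th1 cells were named for 447 enhancers, ESC for 198, NSC for 69, NPC for 28, Ter119 cells for 16 and IPSC for 2. ESC contacts were named for 39.8% of the known enhancers and 28.9% of other single-center enhancers, a difference that was not tested.

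The 497 enhancers had 425 different closest genes. Of these, 369 were closest to 1 of the enhancers, 44 to 2, 8 to 3 and 4 to 4. All 425 were among the 12705 genes that were active, that is, had promoter-proximal reads and over 4 normalized gene body reads per kb. The authors linked enhancers to active genes, and 2281 of the 2282 enhancers of the list had an active closest gene. Gene body density in WT, per kb, was on median 58.1 normalized reads for the closest genes and 37.7 for all active genes. Above the upper quartile of gene body density over active genes stood 178 of the 425 (41.9%), and below the lower quartile 45 (10.6%). Of the closest genes of enhancers with several centers, 55.9% stood above the upper quartile. Promoter-proximal density in WT was on median 2489 normalized reads per kb for the closest genes and 1841 for all active genes.

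The libraries held 16628518 to 26190040 reads on genes, with KO2 the shallowest. The values were deposited after scaling for depth. Promoter-proximal windows took 10.3 and 9.38% of the scaled reads in WT1 and WT2, 13.6% in KO1 and 17.0% in KO2. Hdac3 itself had 665, 648, 609 and 582 normalized gene body reads in WT1, WT2, KO1 and KO2, a log2 fold change of -0.14 ± 0.13 (SE), whose adjusted p in limma (Benjamini-Hochberg) was 0.41. Since these reads cover the whole gene and not the deleted part, they check nothing about the genotype. Markers of hepatocytes were the most abundant of 7 cell types, and none of the markers in the table was at 0, with Alb, the albumin gene, at 67673 and 75584 normalized gene body reads in WT1 and WT2.

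Promoter-proximal reads were counted by the authors in the window of 50 bp that held most reads around the gene start. They were called up in 130 and down in 11 of the 425 closest genes. A call needed an adjusted p under 0.05 from limma over all active genes and an absolute log2 fold change (KO over WT) over 0.6. For these reads limma used a spread shared by genes of similar level. The p-values and SE therefore do not measure a gene's own spread between pools. The calls made up 30.6 and 2.59% of the closest genes, against 25.8 and 2.2% of all active genes. Both KO libraries lay above both WT libraries in 283 closest genes (66.6%, against 61.9%) and below in 25 (5.88%, against 6.72%). The median log2 fold change was 0.61 for the closest genes and 0.56 for all active genes, so the shift upward was seen over active genes at large. The scaling set the balance of these calls. With median-of-ratios factors taken within the promoter-proximal region, which move the median of active genes from 0.56 to about 0, 28 closest genes were called up and 29 down, against 4.99 and 7.41% of all active genes under the same factors. Single libraries moved the count as well, with fewer called up without KO2, WT2 or WT1 and more without KO1. All active genes moved the same way. The median log2 fold change of the closest genes was 0.41 without KO2, 0.52 without WT2, 0.65 without WT1 and 0.79 without KO1. For all active genes it was 0.37, 0.51, 0.59 and 0.74. Single genes are therefore given below also relative to the median of active genes.

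Ccl2, the gene of a chemokine that draws monocytes, had 37.9, 22, 116 and 176 normalized promoter-proximal reads in WT1, WT2, KO1 and KO2. Its log2 fold change was 2.27 ± 0.37 (adjusted p = 1.7e-07, limma), 1.71 more than that of the median active gene, and its enhancer lies 28097 bp away. Capg, which encodes an actin capping protein, rose by 1.76 ± 0.35 (1.20 above the median), from 48.2 and 64 to 173 and 209.5 reads. Thbs1, the thrombospondin 1 gene, went from 29.8 and 44 to 119 and 129 reads. Serpinh1, the gene of the collagen chaperone HSP47, went from 68.8 and 64 to 223 and 222 reads, and Samd9l, an interferon-inducible gene, from 68.8 and 37 to 168 and 169. The rule that named these 5 genes required both KO libraries to lie on one side of both WT libraries. Thbs1 lost its call without KO2 (adjusted p = 0.0541 in limma) and without WT1 (0.0738), and Samd9l without KO2 (0.0557) and without WT2 (0.13), while Ccl2, Capg and Serpinh1 were called without any 1 library.

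Among the 11 falls were genes of glucose output. Fbp1, a rate-limiting enzyme of gluconeogenesis, had 58.5, 120.0, 14.9 and 22.8 normalized promoter-proximal reads in WT1, WT2, KO1 and KO2, a log2 fold change of -2.13 ± 0.39 (adjusted p = 5.42e-06 from limma), 2.69 under the median of active genes. G6pc, which releases glucose from its phosphate, had 1185, 1131, 329.9 and 496 reads, a log2 fold change of -1.51 ± 0.29 (adjusted p = 1.14e-05 from limma). Its enhancer lies 3478 bp from the gene start. Errfi1, a feedback inhibitor of the EGF receptor, fell from 473 and 1033 to 196 and 246 reads. Fn1, the fibronectin gene, fell from 559.9 and 455 to 225 and 273 reads, and the noncoding A530013C23Rik, closest to 2 enhancers, from 482 and 465 to 206 and 249. Without WT2, the adjusted p in limma was 0.0746 for Fbp1, 0.153 for Errfi1, 0.118 for Fn1 and 0.158 for A530013C23Rik. Without WT1 it was 0.216 for Fn1 and 0.148 for A530013C23Rik, and without KO2 0.0523 for Fn1, while G6pc was called without any 1 library.

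Gene body reads, counted from 1000 bp after the start, were called up in 59 and down in 45 of the 425 closest genes. These are 13.9 and 10.6% of the closest genes, against 10.4 and 11.4% of all active genes. Both KO libraries lay above both WT libraries in 172 (40.5%, against 27.6%) and below in 143 (33.6%, against 42.8%). The median log2 fold change was 0.01, against -0.09 for all active genes. The closest genes' median was 0.08 and 0.07 for KO1 over WT1 and WT2, and -0.02 and -0.03 for KO2 over the same, so its sign depended on the KO library. The difference from the median of all active genes stayed between 0.0865 and 0.1247 when any 1 library was left out. With median-of-ratios factors within gene bodies, 74 genes were called up and 38 down, against 12 and 9.37% of all active genes under the same factors. Without KO1 the closest genes' median was -0.05, against -0.14 for all active genes. Fewer genes were then called up, and the share of closest genes called up was no longer above that of all active genes.

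Kcnj8, which encodes a subunit of an ATP-sensitive potassium channel found in vascular mural cells, had 103, 149, 519 and 490.4 normalized gene body reads in WT1, WT2, KO1 and KO2. Its log2 fold change was 2.01 ± 0.18 (adjusted p = 5.08e-09 from limma). Its deposited start lies 31647 bp from enhancer 1792 (chr6:142537444-142539709). Serpinh1 had 120.5, 210, 371 and 366 gene body reads, a log2 fold change of 1.21 ± 0.20 (adjusted p = 3.63e-05 from limma), and lies 5955 bp from enhancer 2006 (chr7:99359194-99360922). Hgf, the hepatocyte growth factor gene, had 2385, 2353, 5595 and 4871 reads. It changed by 1.14 ± 0.11 on the log2 scale (adjusted p = 1.7e-08 from limma) and lies 82156 bp from enhancer 1698 (chr5:16468874-16471394). Bgn, which encodes the matrix proteoglycan biglycan, had 262, 380.0, 684 and 680.2 reads and is closest to 2 enhancers, at 2309 and 5776 bp. Sox17, a transcription factor gene of endothelium, had 257, 314, 575 and 656 reads and lies 74446 bp from enhancer 137 (chr1:4570859-4572818). These 5 genes were named by the same rule, so the separation of their KO from their WT libraries was set by the choice.

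The gene body falls were led by Dio3os, a noncoding gene beside the deiodinase gene Dio3. It had 269.6, 196, 27.6 and 21.3 normalized reads, a log2 fold change of -3.19 ± 0.25 (adjusted p = 7.35e-10 from limma), and lies 44487 bp from enhancer 472 (chr12:110229037-110233581). Iyd, whose enzyme recovers iodide from iodotyrosines, had 467, 522, 151 and 103 reads. Its log2 fold change was -1.98 ± 0.18 (adjusted p = 8.52e-09 from limma). Its 2 enhancers, chr10:3630321-3632161 and chr10:3632963-3635086, stand 802 bp apart and about 90 kb away, at 90042 and 92684 bp. Fam55b, named Nxpe2 by RefSeq, fell from 554 and 491 to 169 and 115 reads, and the center of its enhancer lies inside the neighbouring gene Nxpe4. Nrn1, which encodes neuritin, fell from 2907 and 3253 to 867 and 837 reads, and the center of its enhancer lies inside Fars2, 148813 bp away. Gcnt4, a glycosyltransferase gene, fell from 402 and 460.0 to 119.9 and 118 reads. The call of each of these 10 genes held without any 1 library.

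**Figure D2:**
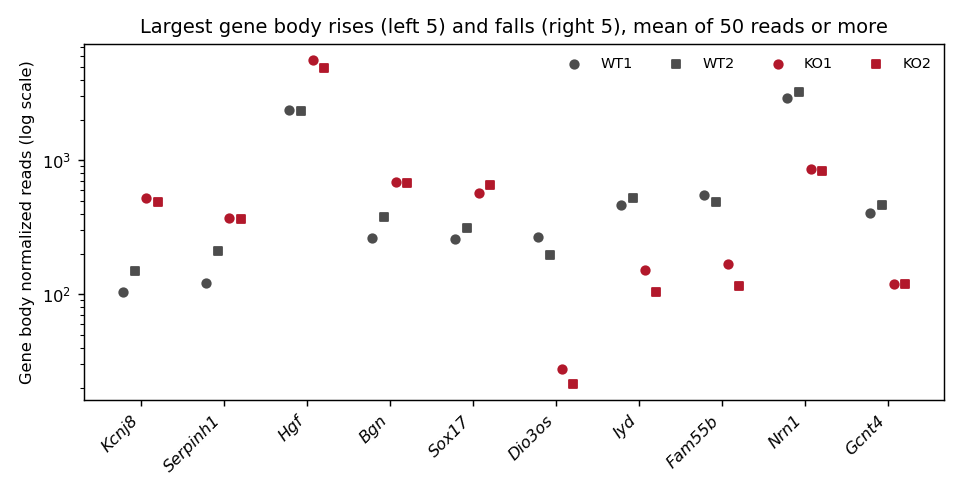
Normalized gene body reads (log scale) of the 5 closest genes with the largest called rises (left) and the 5 with the largest called falls (right) among genes averaging at least 50 normalized reads, 1 point per library, circles for replicate 1 and squares for replicate 2, grey for WT and red for KO. The choice of genes required the 2 KO points to lie on one side of both WT points. Kcnj8 went from 103 and 149 to 519 and 490.4 reads, and Dio3os from 269.6 and 196 to 27.6 and 21.3.

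Put together by gene, 40 closest genes were called up in both regions (9.41%, against 7.06% of all active genes) and 9 down in both (2.12%, against 1.94%). Another 87 were up at the promoter-proximal region with no gene body call (20.5%, against 18.5%). In the gene body alone, 19 were up (4.47%, against 3.35%) and 33 were down (7.76%, against 9.23%), and 232 had no call in either region (54.6%, against 59.4%). Opposite calls occurred in 3 genes (0.706%, against 0.236%), which were up at the promoter-proximal region and down in the gene body: Il1r1, the interleukin 1 receptor gene, Atl2, a gene of endoplasmic reticulum shape, and Zfp169, a zinc finger gene. A promoter-proximal fall without a gene body call was seen in 2 (0.471%, against 0.252%), A530013C23Rik and Cyp3a59, the latter a cytochrome gene with close paralogs that could share its reads. The promoter-proximal rise of Il1r1 had an adjusted p in limma of 0.0563 without KO1, 0.326 without KO2 and 0.604 without WT2, and that of Atl2 between 0.124 and 0.34 without any 1 library. With factors taken within the region, neither of the pair was called. Zfp169 and Cyp3a59 are named after their values were seen.

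**Figure D3:**
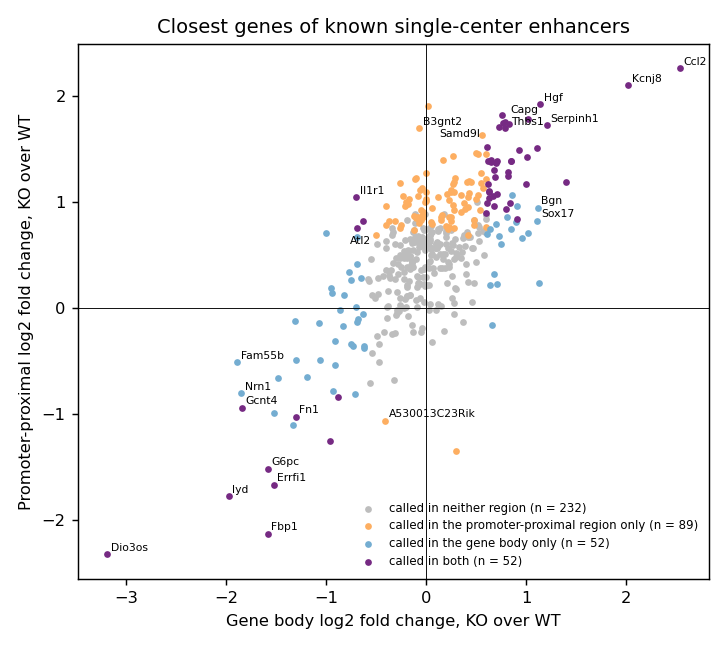
Promoter-proximal against gene body log2 fold change (KO over WT) of the 425 closest genes, 1 point per gene, colored by the region in which the gene was called. Most points lie above the horizontal line at 0 (median 0.61), while the gene body values center near 0 (median 0.01).

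The pausing index divides the promoter-proximal density by the density in the gene body. Its medians over the closest genes were 44.5, 38.8, 48.4 and 72.1 in WT1, WT2, KO1 and KO2, so KO2 stood apart from the other three. The index was called up in 38 closest genes (8.94%, against 12.4% of all active genes) and down in 1, Cyp3a59 (0.235%, against 0.519%). B3gnt2, which makes polylactosamine chains, had an index of 21.5, 13.0, 43.7 and 74.7, a log2 fold change of 1.77 ± 0.42 (adjusted p = 0.0025 from limma). Its promoter-proximal reads rose from 90.6 and 56 to 188 and 290.0, while its gene body reads were 2093, 2156, 2122 and 1916. That rise had an adjusted p in limma of 0.0679 without KO2 and 0.0892 without WT2. Il1r1 had an index of 22.1, 12.3, 42.3 and 72.8, with 9639 and 7338 gene body reads in WT and 5552 and 4798 in KO. Atl2 had an index of 686, 607, 1922 and 1626. No index call was made in the closest genes with median-of-ratios factors within each region. With the replicate number as a block, calls up numbered 4, against 1.46% of all active genes. Fewer were called up without KO2, WT2 or WT1 and more without KO1, over all active genes as well. The index's median log2 fold change was 0.29, 0.45, 0.63 and 0.79 without KO2, WT2, WT1 and KO1. For all active genes it was 0.38, 0.55, 0.68 and 0.85. For B3gnt2 the adjusted p from limma was 0.0687 without KO2, 0.105 without WT1 and 0.587 without WT2.

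Genes closest to 3 or more of the enhancers were 12, and 3 of them belong to the Krüppel-like factor family, transcription factors that bind CACCC boxes. Klf6 rose in both regions. Its promoter-proximal reads were 307, 198, 492 and 578 (log2 fold change 1.11 ± 0.30, 0.55 above the median of active genes, adjusted p = 0.00315 from limma), and its gene body reads 1480, 1265, 2154 and 2063 (0.62 ± 0.12, adjusted p = 0.000131). The gene body value stood just past the threshold of 0.6 and was 0.59 without KO1 and 0.51 without WT2. The promoter-proximal call was lost without KO2 (adjusted p = 0.0965 in limma), without WT2 (0.292) and with factors taken within the region (0.114). Klf3 and Klf13, each closest to 4 enhancers, had gene body log2 fold changes of 0.09 ± 0.11 and -0.21 ± 0.11, neither called.

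Fos, an immediate-early gene of the AP-1 complex, had 4 enhancers, 3 upstream at 28200, 10657 and 4208 bp and 1 downstream at 57881 bp from its start. Its gene body reads were 83.8, 192, 145 and 97.2, so the groups overlapped, and its promoter-proximal reads of 211, 231, 205 and 316 overlapped as well. Map3k1, a kinase gene of the JNK pathway, had 4 enhancers upstream between 124334 and 191096 bp, and 5387, 5741, 6190 and 6145 gene body reads. Both KO libraries were higher there, but the log2 fold change was 0.15 ± 0.11 and not called.

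Ets1, a transcription factor gene of lymphocytes and endothelium, had 3 enhancers downstream at 119467 to 290417 bp. It rose in the gene body from 14377 and 14754 to 27333 and 24949 reads (0.84 ± 0.12, adjusted p = 3e-06 from limma). Psap, the prosaposin gene of lysosomes, had 3 enhancers within 15861 bp upstream and rose at the promoter-proximal region, from 242 and 143 to 337 and 374 reads (0.93 ± 0.31, 0.37 above the median of active genes, adjusted p = 0.0176 from limma). Its adjusted p was between 0.0526 and 0.468 in limma without any 1 library, and 0.366 with factors taken within the region. B3gnt2, described above, had enhancers 11145 bp upstream, 78666 bp into the longer GENCODE gene and 274687 bp downstream. Irf2, Rbx1, Zfp36l2 and 5830428M24Rik had no call in either region. Of the 12 genes, 3 were called up at the promoter-proximal region (25%, against 25.8% of all active genes), 2 in the gene body (16.7%, against 10.4%) and none down in either. For genes with 1 and 2 enhancers the shares called up were 32 and 20.5% at the promoter-proximal region and 13.6 and 15.9% in the gene body, and these were not tested against each other.

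**Figure D4:**
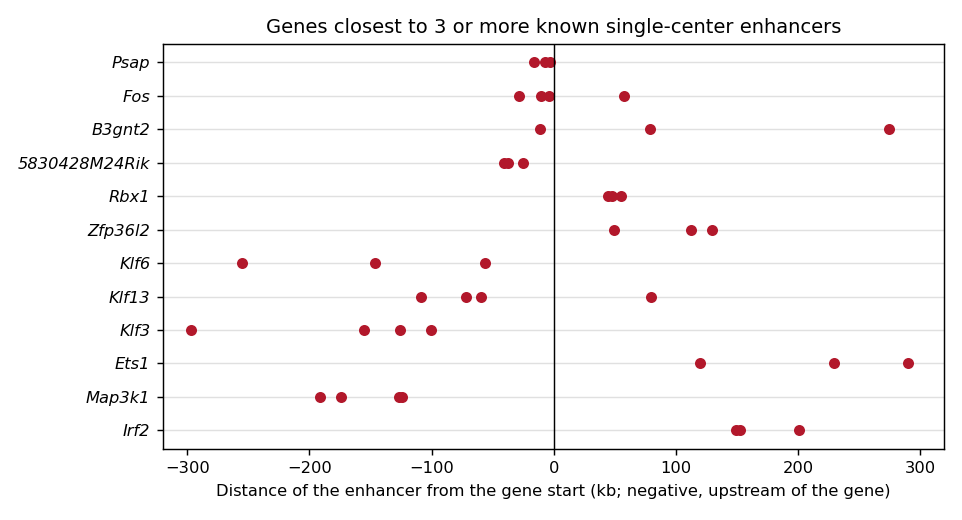
Positions of the known single-center enhancers (points) relative to the start of their closest gene (kb, negative upstream of the gene), for the 12 genes closest to 3 or more of them. Fos and Psap have enhancers within 5 kb of the start, while those of Map3k1, Irf2 and Ets1 all lie more than 100 kb away.

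By distance to the nearest of the enhancers, gene bodies were called up in 12 of 72 genes within 10 kb (16.7%). From 10 to 50 kb 20 of 180 were called up (11.1%), and from 50 to 100 kb 13 of 84 (15.5%). Beyond 100 kb it was 14 of 89 (15.7%), against 10.4% of all active genes. Calls down in the 4 bins were 5, 19, 11 and 10 (6.94, 10.6, 13.1 and 11.2%, against 11.4%). Promoter-proximal reads were called up in 23, 49, 29 and 29 (31.9, 27.2, 34.5 and 32.6%, against 25.8% of all active genes). The gene body median log2 fold change was 0.18 within 10 kb and 0.00, -0.03 and -0.02 in the farther bins. Among 342 active genes within 50 kb of an enhancer, 90 were closest to none of them. In the gene body 9 of these 90 were called up (10%) and 6 down (6.67%). The 4614 active genes tied to the enhancers by 4DGenome had gene body calls of 8.41% up and 9.36% down, with a median log2 fold change of -0.09 that equals the one of all active genes at this precision.

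Closest genes of other enhancers had another balance. For the 236 genes closest to enhancers with several centers, gene bodies were called up in 8.05% and down in 20.8%, and for the 1041 genes closest to other single-center enhancers in 12.9 and 15%. These sets share 198 genes with the known enhancers. The 227 genes closest to known single-center enhancers and to no other listed enhancer had gene body calls of 16.3% up and 7.05% down and promoter-proximal rises of 35.2%. The 198 shared genes had 11.1 and 14.6%, and the 954 genes closest to other enhancers alone 12.9 and 15.8%. The differences between these sets were not tested.

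The closest genes were also described by 7 gene lists, which were drawn up with earlier results of these data known and share no test. Shares of a list called in the gene body are set against 10.4% up and 11.4% down over all active genes. At the promoter-proximal region they are set against 25.8% up and 2.2% down. With factors taken within that region, 4.99% of all active genes were called up there and 7.41% down. A total of 202 closest genes stood in a list and 223 in none. Gene body calls in the genes of no list were 23 up and 15 down, with a median log2 fold change of -0.04.

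Genes of hepatocyte metabolism and secreted proteins were 37 of the closest genes. In the gene body 14 fell (37.8%) and 1, the desaturase gene Scd2, rose (2.7%), and the median log2 fold change was -0.40. Iyd, Fbp1, G6pc and Elovl2, an enzyme of long-chain fatty acid elongation, had the largest falls. Fbp1 had 10076, 14145, 4488 and 3510 gene body reads in WT1, WT2, KO1 and KO2, G6pc 24157, 25759, 8932 and 7742, and Elovl2 9783, 8388, 3867 and 3454. Every KO value of these genes was under every WT value, which largely follows from choosing the largest called falls. Alb, closest to an enhancer at 44842 bp, fell by 0.89 on the log2 scale, to 38678 and 38574 reads. At the promoter-proximal region 3 genes rose (8.11%, against 25.8% of all active genes) and 5 fell (13.5%, against 2.2%). With factors taken within the region 1 rose and 11 fell. The list's gene body falls numbered 11 to 13 without any 1 library. In the same libraries the summed gene body density of 8 hepatocyte markers, Alb among them, was 27667 and 29392 normalized reads per kb in WT and 12987 and 12785 in KO, with 5 of the 8 called down. In whole tissue, fewer cells of a type and less transcription per cell cannot be told apart.

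Endothelial, stellate and matrix genes were 20 of the closest genes. In the gene body 11 rose (55%) and 1 fell (5%), with a median log2 fold change of 0.61. Besides Kcnj8, Serpinh1 and Sox17, the tight junction gene Cldn5 rose from 8.03 and 14 to 33.9 and 25.8 reads (1.39 ± 0.42, adjusted p = 0.00975 from limma), on few reads, and its adjusted p was 0.11 without KO1, 0.0701 without WT1 and 0.097 by DESeq2. Its enhancers lie 42960 and 88998 bp away. The fall was that of Fn1, which hepatocytes secrete in bulk into plasma, from 38848 and 39685 to 16688 and 15071 reads (-1.31 ± 0.12, adjusted p = 7.76e-09 from limma). The rises numbered 7 to 11 without any 1 library, with 7 without WT1 or KO1. At the promoter-proximal region 9 rose (45%, against 25.8% of all active genes) and 1 fell (5%, against 2.2%). With factors taken within the region 4 rose and 1 fell. Summed markers of liver endothelium were 802 and 829.6 normalized reads per kb in WT and 1399 and 1293 in KO (4 of 6 called up), and those of stellate cells 126 and 187 against 378 and 379 (6 of 6 called up). The lists of markers and of closest genes share no gene here, and the part of cell numbers in the rises was not tested.

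Leukocyte and inflammatory signalling genes were 40 of the closest genes, and both KO libraries lay above both WT libraries in 31 of them in the gene body (77.5%, against 27.6% of all active genes). There 9 rose (22.5%, against 10.4%) and 2 fell (5%, against 11.4%), with a median log2 fold change of 0.42. Il1a, the interleukin 1 alpha gene, had 2229, 2400, 4730.1 and 3647 reads (0.84 ± 0.12, adjusted p = 5.01e-06 from limma). Ccl2 went from 3.44 and 13 to 45.6 and 44.0 gene body reads over 876 bp. Art2b, a T cell ectoenzyme gene with a close paralog that could share its reads, went from 11.5 and 17 to 32.9 and 30.4, and its adjusted p was 0.115 without KO1, 0.087 without KO2, 0.124 without WT1 and 0.164 by DESeq2. The falls were those of Il1r1, and of Pla2g7, a phospholipase gene of macrophages, from 1132 and 1035 to 700.1 and 507 reads. Il1r1 was at -0.60 without KO2 and at -0.51 without WT1. At the promoter-proximal region 17 rose (42.5%, against 25.8% of all active genes) and none fell (against 2.2%). With factors taken within the region 4 rose and none fell. The gene body rises numbered 5 without KO1, 15 without WT2 and 16 with factors taken within the region. Summed myeloid markers were 849.9 and 876 normalized reads per kb in WT and 1073 and 899 in KO, and of the 7 measured none was called. Lymphocyte markers were 68.6 and 96.3 in WT and 125 and 71.4 in KO, so those groups overlapped. Erythroid markers were 118 and 123 against 81.7 and 80.7.

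Immediate-early, AP-1 and KLF genes were 17 of the closest genes and held 33 of the enhancers. In the gene body 6 rose (35.3%) and 3 fell (17.6%). Jun, the AP-1 partner of Fos, had 513, 853, 1257 and 1221 reads (0.90 ± 0.16, adjusted p = 8.92e-05 from limma) and was at 0.54 without WT1. Ier5, an immediate-early response gene, went from 258 and 346 to 615 and 547 reads, and Klf4 from 125 and 159 to 265 and 241, the latter with an adjusted p of 0.0522 from limma without KO1. Klf12, whose 2 enhancers lie about 600 kb away at 599565 and 602507 bp, fell from 15023 and 12664 to 5151 and 4482. The other falls were those of Sik1 and Tsc22d3, and the members of the family thus moved both ways. At the promoter-proximal region 6 rose (35.3%, against 25.8% of all active genes) and none fell (against 2.2%). These counts became none and 2 with factors taken within the region.

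Liver transcription factors and nuclear receptors were 25 of the closest genes, with 4 gene body rises (16%) and 5 falls (20%). Prox1, a regulator of hepatocyte and lymphatic identity, fell from 9374 and 9515 to 4041 and 3556 reads (-1.32 ± 0.11, adjusted p = 1.65e-09 from limma). Ppara, the nuclear receptor that drives fatty acid oxidation, fell from 26070 and 22004 to 10974 and 11881 (-1.07 ± 0.12, adjusted p = 1.57e-07 from limma). Sox5 fell from 11822 and 11090 to 6262 and 5473. Tshz3, whose enhancer 1951 was shown above and lies 434182 bp away, rose from 1352 and 1602 to 2841 and 2766. All 4 had both KO libraries on one side, which largely follows from naming called genes with the largest gene body changes. The rises numbered 1 without KO1 and the falls 5 without any 1 library.

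Genes of kinases, phosphatases and growth factor signalling were 39 of the closest genes, with 5 gene body rises (12.8%, against 10.4% of all active genes) and 4 falls (10.3%, against 11.4%). Errfi1 had the largest fall, from 37024 and 42409 to 14267 and 13253 reads (-1.53 ± 0.12, adjusted p = 9.16e-10 from limma). Map2k6, a kinase gene of the p38 pathway closest to enhancer 358 shown above, fell from 4085 and 2936 to 1956 and 1532, and Dapk1 from 23367 and 21339 to 12530.2 and 11152. Igf1r, the receptor gene of insulin-like growth factor 1, rose from 2847 and 3095 to 5847 and 5255. Chromatin regulators and coregulators were 24 of the closest genes and had 1 gene body fall, that of Cxxc5, from 3332 and 3496 to 1959 and 2080.1 reads, and no rise. Their median log2 fold change of -0.09 equals the one of all active genes at this precision. At the promoter-proximal region 6 of them were called up (25%, against 25.8% of all active genes), among them Ep300, Atf7ip and Hnrnpu, and with factors taken within the region 1 was. Without KO2, WT1 or WT2 the calls of Ep300, Atf7ip and Hnrnpu were lost, with adjusted p values in limma from 0.0601 to 0.35.

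**Figure D5:**
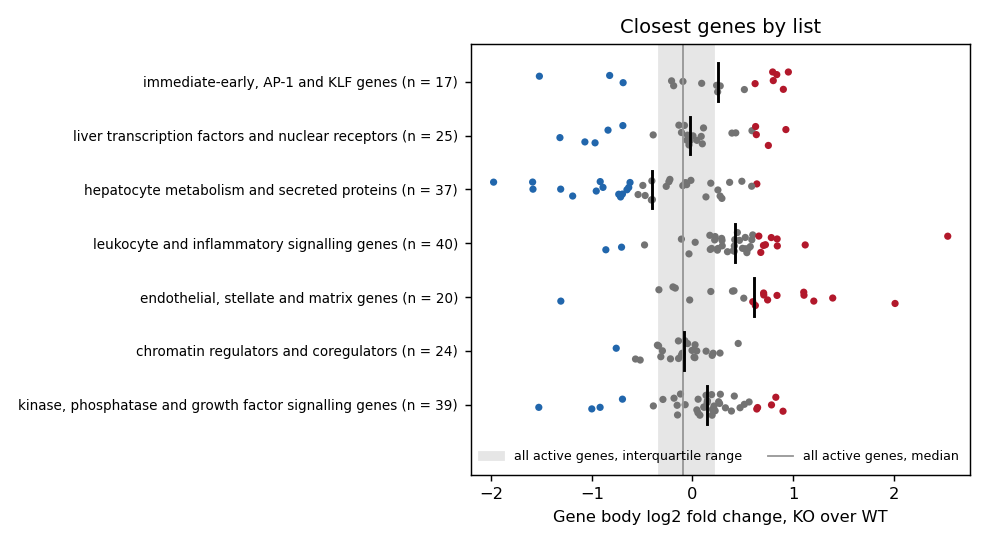
Gene body log2 fold change (KO over WT) of the closest genes in each of 7 lists, 1 point per gene, red for genes called up, blue for genes called down and grey for the others, with a black bar at the list's median. The grey band and line give the interquartile range and the median (-0.09) of all active genes. The medians of endothelial, stellate and matrix genes (0.61) and of leukocyte genes (0.42) lie to the right of the band. That of hepatocyte genes (-0.40) lies to its left, and single genes of these lists also fall inside the band.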

How the data were processed

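A total of 2 WT and 2 KO PRO-seq libraries, each from nuclei pooled from several mice, and a list of enhancers were analysed. Per the labels and the study's methods, the authors trimmed reads with cutadapt, aligned them with Bowtie2 to mm10, counted reads per transcript in promoter-proximal windows and gene bodies, and scaled each library for depth. The deposited values are thus a normalized signal, and in WT2, whose scaling factor is 1, the deposited values are the read counts themselves. Division by each library's scaling factor gave whole reads within 0.001 for 100% of 41640 values, which allowed count tests as alternatives. The authors called enhancers on all libraries pooled, and the deposited list holds positions, gene names and marks of overlap, with no value per library.

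Of each symbol's transcripts, that with most promoter-proximal reads on average was used, and log2(value + 1) was compared in limma 3.58.1 (R 4.3.3) over 12705 active genes, with Benjamini-Hochberg adjustment. Fold changes are on the log2(value + 1) scale, which understates those of low genes. At the promoter-proximal region and for the index, limma replaced each gene's own spread by that of genes of similar level. In the gene body it drew each gene's spread toward such a common value. DESeq2 1.42.0 and edgeR 4.0.16 were run on the recovered counts. Other alternatives were the pseudocount, the activity filter, the scaling, the transcript kept, the replicate block and leaving out each library. On simulated counts of 12705 genes with 200 changed 4-fold, limma recovered 157 (78.5%) at the promoter-proximal region and 200 (100%) in the gene body, with 0 false calls. The simulated counts held no shift common to all genes and no library effect beyond depth, and changed genes averaged at least 50 reads. They therefore say nothing about false calls from such a shift or from single libraries. Reads measure counting error only within a library, and depth was 16628518 to 26190040 reads on genes.

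Enhancer coordinates are those of the list in mm10. Sides and host genes came from GENCODE vM21, and gene positions and sequences from RefSeq on GRCm38.p6, in which all 425 closest genes matched. Named genes were the 5 largest called rises and falls per region, and 3 for the pausing index, averaging 50 normalized reads or more, where both KO libraries lay on one side of both WT libraries. Closest genes of 3 or more enhancers were also named, as were up to 4 called genes of each list. No fall of the index met the rule. The enhancers studied, the gene lists and the markers were chosen with earlier results of these data known.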

Additional observations from a re-analysis of the deposited data

How the results depend on the processing

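Over the 425 closest genes, no named call at the promoter-proximal region or in the gene body changed sign under any alternative. Counts of promoter-proximal calls up (130) became 28 with median-of-ratios and 28 with TMM factors within the region, all 28 shared with the 130, and 0 without the activity filter, and ranged from 12 to 145 when 1 library was left out. Calls down (11) became 29, 30 and 0 under the same settings and ranged from 3 to 7. Gene body calls up (59) became 9 without the filter and ranged from 33 to 67, and calls down (45) became 15 without the filter and ranged from 39 to 46. Pausing index calls up (38) became 25 with a pseudocount of 0.1, 58 with 10, and 0 without the filter, with median-of-ratios and with TMM, and ranged from 0 to 154. Calls down (1) became 0 without the filter and with median-of-ratios and ranged from 0 to 2. Without the filter, limma's prior degrees of freedom fell to 0.8062, 0.6964 and 4.217 for the promoter-proximal region, the gene body and the index, from infinite, 20.61 and infinite. DESeq2 called 114 up and 8 down at the promoter-proximal region and 54 and 44 in the gene body, and edgeR 129 and 11, and 60 and 45.

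The libraries share only replicate numbers, and WT1 and KO1 deviated from their group means with correlations across genes of -0.11, 0.02 and -0.07 for the 3 measures. With the replicate number as a block, 74 promoter-proximal calls up and 8 down, 59 and 45 gene body calls, and 4 and 0 index calls were made. Crossing the pairs, an alternative added after seeing the data, led to 186 and 16 promoter-proximal calls, 59 and 45 gene body calls, and 98 and 1 index calls.

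KO2 had the fewest reads. With 2 libraries per genotype, calls at the promoter-proximal region and of the index rest on the scaling and on single libraries, while the gene body calls changed less. Changes of the enhancers' own transcription were not analysed here.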
